A study of Mus musculus with 6 samples.

Results

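The forebrain of mouse embryos without Fezf1 and Fezf2 was followed over a single day of development, from embryonic day 9.5 (E9.5) to embryonic day 10.5 (E10.5). The embryos were Fezf1-/- Fezf2-/-, lacking a pair of zinc-finger repressors of the early rostral forebrain, and are called knockout here. The comparison uses 2 of the 6 arrays of the series, the knockout at E10.5 and the knockout at E9.5. The others are the knockout at E12.5 and wild type at E10.5, E9.5 and E12.5. Each array holds total RNA of hand-dissected forebrain in front of the rear end of the lateral ventricles, labelled with biotin and hybridised to an Affymetrix mouse array. The labels give neither the deleted parts of the 2 genes, nor the strain, nor how many embryos went into an array. Of 18194 genes with a probe set that names a single gene, 7614 had a signal over 100 in either knockout array, and these are described.

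There was 1 array a side, so no difference below was tested and none has an error. A change is the log2 difference E10.5 minus E9.5 of signal plus 6.50, a constant that damps changes of dim genes. The signals were first quantile-normalized over all 6 arrays. A gene is said to have risen or fallen where its change was at least 2-fold, 1 on this scale, which is a rule of size and not of significance. Arrays of bulk tissue cannot tell fewer cells of a kind apart from less RNA in each cell.

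The forebrain wall at these ages is a neuroepithelium, a single layer of dividing cells. Over this window early embryonic regulators such as the RNA-binding protein Lin28a are switched off, the epithelial cells become radial glia, and the first of them leave the cell cycle to become neurons. Proneural basic helix-loop-helix factors start that step, and structural genes of axons and the cytoskeleton follow. Notch signalling, with its Hes repressors, holds neighbouring cells in the progenitor state.

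Both targeted genes were lower than in wild type at both ages, though whether their probe sets lie in the deleted parts is not known here. Fezf2 had a signal of 0.904 in the knockout at E10.5 and 0.458 in the knockout at E9.5, against 146 and 78.9 in wild type at E10.5 and E9.5. Fezf1 had 78.4 in the knockout at E10.5 and 97.7 in the knockout at E9.5, against 143 and 251 in wild type at the same ages. Otx2, a homeobox gene of forebrain and midbrain, had 649 at E10.5 and 392 at E9.5 in the knockout, and Six3, a homeobox gene of the rostral forebrain, 181 and 165. Some other eye field and hypothalamus factors were dim, such as Rax (47.0 and 18.9) and Nkx2-1 (3.78 and 2.44). Irx3, listed with thalamus, pretectum and midbrain, had 773 and 741. These genes do not by themselves fix the limits of the dissection. Of 25 measured Hox genes, which mark hindbrain and spinal cord, 0 were over 100 in either knockout array and the brightest had 88.6.

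The arrays also differed in ways that touch every result below. The median deposited signal was 16.0 in the knockout at E10.5 and 21.7 in the knockout at E9.5. The signal of the 3′ beta-actin control probe set over that of the 5′ one, a sign of how complete the labelled RNA was, was 1.59 at E10.5 and 3.21 at E9.5 in the knockout, and 1.84 and 3.12 in wild type. For Gapdh the same ratio was 0.858 at E10.5 and 0.949 at E9.5 in the knockout. The part of this difference in the changes was not tested. Xist, which silences one X chromosome in females, had 11.7 in the knockout at E10.5 and 453 in the knockout at E9.5, against 573 and 725 in wild type at these ages. Y-linked Eif2s3y had 243 and 194 in the knockout, Kdm5d 155 and 124, and Uty 101 and 96.3. X-linked Ddx3x had 2479 and 3531. Xist had the largest change of the 7614 genes, while Y-linked signal was present in both knockout arrays. The labels do not give the sex of the embryos.

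Over the day 122 genes rose (1.60% of the 7614) and 70 fell (0.919%). The median change of all 7614 was -0.07, and 79.2% of them changed by less than 0.5 either way. More of them thus lay below 0 than above, and counts of list members on each side of 0 are to be read against that. Over the 7922 genes over 100 in any knockout or wild-type array of these ages, the quartiles of the knockout change were -0.31 and 0.21. The 122 risers had a median fold of 2.27 and the 70 fallers one of 2.2. Of the risers 60 were over 100 at both ages, as were 39 of the fallers, so the others crossed the minimum. The share at 2-fold was lower among bright genes: 3.13% of the 2365 genes whose brighter array lay between 100 and 200, and 1.92% of the 1096 brightest. At the minimum itself, Hebp1 at 100.02 changed by 1.12 and so counts as a riser, and Zfp719 at 100.05 changed by 0.29. Efcab11 at 99.91, which is left out, changed by 0.29. Of 2081 genes whose brighter array lay between 50 and 100, 5.86% were at 2-fold. On the deposited values without scaling, where the median change of all genes was -0.39, 46 genes rose and 341 fell.

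A second probe set gave a check within the same 2 arrays. Only those over 100 are counted here. Many of the second probe sets given below were dimmer, and their changes weigh little either way. Of the 122 risers, 32 had a second probe set over 100, 24 of these went up and 10 by at least 2-fold. Those 10 were Capzb, Csrp1, Haghl, Hes6, Hspa1b, Id4, Lgals1, Lmnb1, Tcf3 and Vcam1. Of the 70 fallers, 22 had a second probe set over 100, 18 went down and 7 by at least 2-fold: Bgn, Car4, Lin28a, Nr6a1, Prtg, Slc9a3r1 and Smo. Of these genes Capzb, Csrp1, Id4, Lgals1, Lmnb1, Tcf3, Vcam1, Bgn and Slc9a3r1 lie outside the rule for named genes and were named after their values were seen. Counted over single probe sets, 347 of 11816 were at least 2-fold higher and 130 at least 2-fold lower.

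**Figure D1:**
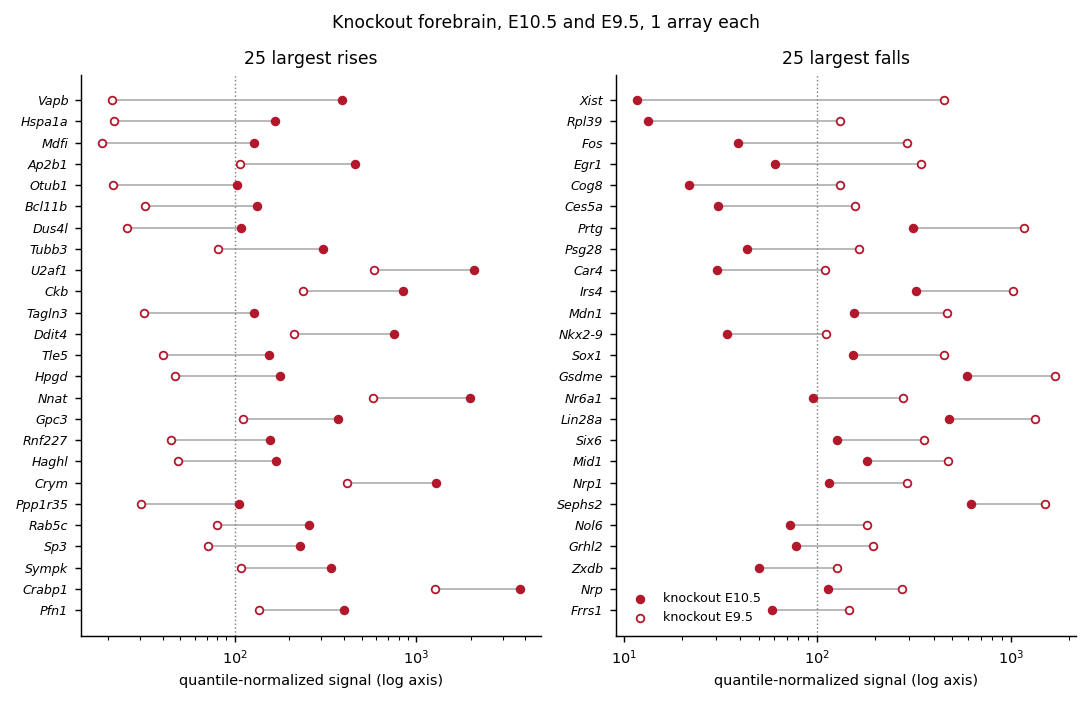
Quantile-normalized signal (log axis) of the 25 largest rises and the 25 largest falls in the knockout, filled points for E10.5 and open points for E9.5, 1 array each. The dotted line marks a signal of 100. Vapb, from 392 at E10.5 against 21.1 at E9.5, and Xist, from 11.7 against 453, span the widest gaps.

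**Figure D2:**
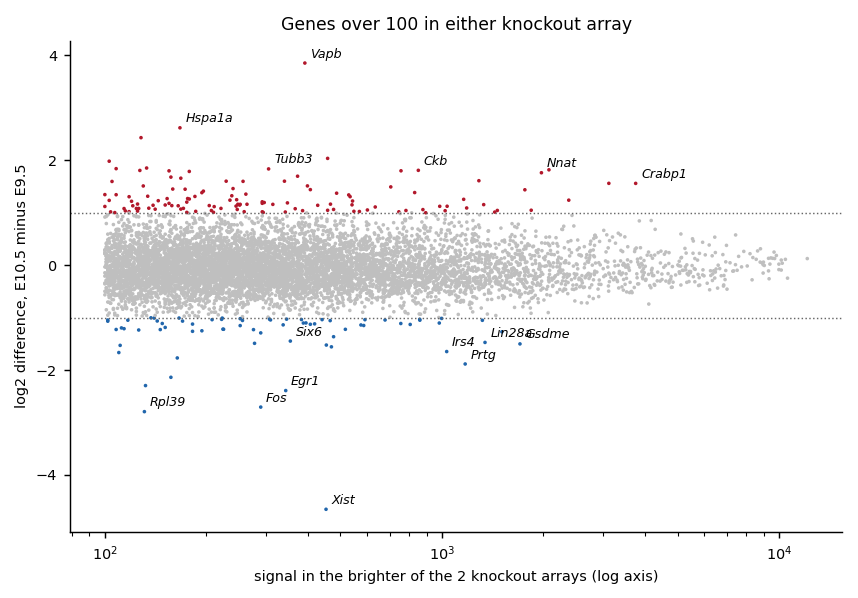
Change in the knockout (log2 difference, E10.5 minus E9.5) against signal in the brighter knockout array (log axis) for 7614 genes. Dotted lines mark 2-fold; the 122 risers lie above and the 70 fallers below, over the whole range of signals.

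Genes of newborn neurons were among the risers. Tubb3, the beta-tubulin of young neurons, had a signal of 306 at E10.5 and 81.1 at E9.5 (1.84, 3.57-fold). Tagln3, an actin-binding protein of neurons, had 127 at E10.5 and 31.6 at E9.5 (1.81). Rufy3, which acts in axon formation, had 196 and 69.5 (1.41), though its second probe set did not move (0.00). Map2, a microtubule protein of dendrites, had 185 and 70.5 (1.31; second probe set 0.86). Each was higher still in the knockout at E12.5: Tubb3 had 2619, Tagln3 1051, Rufy3 1608 and Map2 2775.

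In the list of early neuron genes, 18 of 35 measured members were over 100, 6 of these rose and 0 fell, with a median change of 0.51 against -0.07 for all genes. The exceptions were Nrcam (-0.60), a cell adhesion molecule of axons, and Elavl2 (-0.44), an RNA-binding protein of neurons. Their second probe sets stood at -0.17 and -0.01. Dpysl3, a protein of growth cones, stood at -0.01. The 17 dimmer members are left out. Of 24 measured genes of synapses and excitability, which act in mature neurons, 0 were over 100 and the brightest had 88.1. The knockout forebrain thus carried signal of neuronal structure without signal over 100 of synaptic genes.

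The proneural list moved in the same direction. All 10 of its members over 100, of 19 measured, had a change above 0, and 2 of the 10 rose (median 0.50). Hes6, an inhibitor of Hes1 that promotes neuronal differentiation, had 297 at E10.5 and 126 at E9.5 (1.20; second probe set 1.93). Neurod1, a neuronal differentiation factor, had 175 and 72.4 (1.20; second probe set 0.53). Gadd45g, a stress-related protein of cells leaving the cycle, had 177 and 86.0 (0.99). Neurog1, a proneural factor, had 124 and 61.5 (0.94), though its dim second probe set fell by 1.83, with 3.42 at E10.5 and 28.8 at E9.5. Below the minimum, and named after their values were seen, Neurog2 had 84.6 at E10.5 and 30.7 at E9.5, and Eomes, a factor of basal progenitors, 37.8 and 3.93.

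The promoters of a pair of the risers of these lists are shown because they hold an E-box of the kind that proneural factors can bind. Each is the 250 bases before the outermost annotated start, 5′ to 3′, from RefSeq on GRCm38.p6, with the searched E-box letters in capitals. E-boxes of other letters were not searched, and those in the Hes6 window stay in lower case.
Hes6, chr1:91414039-91414288, minus strand: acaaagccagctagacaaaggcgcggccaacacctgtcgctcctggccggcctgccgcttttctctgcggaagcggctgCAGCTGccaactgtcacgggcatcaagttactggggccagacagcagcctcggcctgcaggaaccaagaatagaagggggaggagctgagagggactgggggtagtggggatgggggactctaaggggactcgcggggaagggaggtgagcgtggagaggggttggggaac
Rufy3, chr5:88564790-88565039, plus strand: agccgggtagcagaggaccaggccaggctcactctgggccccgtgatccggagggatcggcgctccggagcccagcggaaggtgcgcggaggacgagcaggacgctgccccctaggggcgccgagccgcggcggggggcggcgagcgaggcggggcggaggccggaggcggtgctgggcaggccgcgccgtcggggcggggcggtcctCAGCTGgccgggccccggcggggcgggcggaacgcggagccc
The letters searched on both strands were CAGCTG and CAGATG. Of the 8 risers in the proneural and early neuron lists, 3 held a match in this window, Hes6, Stmn3 and Rufy3. The other risers of these lists held none of these letters there. A match was held by 25.5% of 32851 annotated promoters, counting every annotated start and not only the outermost.

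Bcl11b, Nnat, Ckb and Tle5 stood among the 25 largest rises. Bcl11b, a zinc-finger factor of cortical and striatal neurons, had 133 at E10.5 and 32.1 at E9.5 (1.85; second probe set 1.43). Its relative Bcl11a, outside those 25, had 173 and 59.4 (1.45; second probe set 0.87). Nnat, an imprinted gene of the neonatal brain, had 1973 and 577 (1.76) and reached 7367 at E12.5. Ckb, the brain form of creatine kinase, had 851 and 238 (1.81). Tle5, a short Groucho-type corepressor, had 155 and 40.0 (1.80). In the list of cortical glutamatergic neuron factors only Bcl11a and Bcl11b rose among 12 members over 100, 6 of which were above 0 and 6 below. Lmo4 stood at 0.64 and Sox5 at 0.93, while Mef2c (-0.57), Foxp1 (-0.52), Zbtb18 (-0.46) and Cux2 (-0.43) were lower. The second probe sets of Mef2c, Foxp1 and Cux2 stood at -0.03, -0.01 and -0.37, and that of Sox5 at 0.53. The Cajal-Retzius list had only Cxcr4 (-0.15) and Ndnf (0.11) over 100 of 10 measured.

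Cell cycle exit genes moved with the neurons in part. Cdkn1c, an inhibitor of cyclin-dependent kinases, had 1036 at E10.5 and 472 at E9.5 (1.12), the only riser among 14 members over 100, of which 11 were above 0. Ccnd2, cyclin D2, was at 0.66 and Gadd45a at 0.64, while Ccnd1, cyclin D1, was at -0.36. S-phase genes were split, 9 above 0 and 12 below among 21 over 100, with a median of -0.16. Ccne1, cyclin E1, had 325 at E10.5 and 678 at E9.5 (-1.05; second probe set -0.22), and Mcm2, Mcm4 and Fen1 of the replication machinery were at -0.58, -0.52 and -0.52, although the second probe set of each lay above 0 (0.07, 0.18 and 0.23). Tk1 and Rrm1, which supply nucleotides, were at 0.83 and 0.57. Genes of G2 and M phase had a median of 0.20 with 0 of 23 at 2-fold, led by Ube2c (0.78) and Birc5 (0.57).

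Progenitor genes mostly changed by less than 2-fold, as did most of all 7614 genes, of which 1.60% rose and 0.919% fell. In the radial glial list 22 of 32 measured members were over 100, 12 above 0 and 10 below, with 0 rises and a median of 0.10. Fabp7, a fatty acid-binding protein of radial glia, had 779 at E10.5 and 430 at E9.5 (0.85), and reached 5167 at E12.5. Msi1, an RNA-binding protein of neural progenitors, was at 0.77 and Notch1 at 0.65, with second probe sets at 0.65 and -0.10. Vim, the intermediate filament of these cells, had 3729 and 3113, and Sox2, the factor of neural progenitors, 1538 and 1610. Sox1, another SoxB1 factor of the neural plate, was the 1 faller, with 154 at E10.5 and 454 at E9.5 (-1.52), but its dim second probe set went up by 0.60.

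Hes5, the Notch target that restrains neurogenesis, had 848 at E10.5 and 679 at E9.5 in the knockout (0.32; second probe set 0.60), and Hes1 115 and 94.8. In the Notch list 0 of 15 members over 100 changed 2-fold, and the median was -0.06. Mfng, a modifier of Notch receptors, was at 0.45, and the ligand Jag1 at -0.33.

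Lin28a, Prtg and Nr6a1, all active in the early embryo, fell. Lin28a, which blocks maturation of let-7 microRNAs, had 479 at E10.5 and 1342 at E9.5 (-1.47; second probe set -1.14), and 21.4 at E12.5. Prtg, protogenin, a receptor-like protein of the early neural tube, had 313 and 1172 (-1.88; second probe set -2.33), and 30.9 at E12.5. Nr6a1, an orphan nuclear receptor that silences pluripotency genes, had 94.9 and 278 (-1.49; second probe set -1.55). Sall4, a zinc-finger factor of early embryonic cells, did not reach 2-fold; it had 413 and 779 (-0.90; second probe set -0.68), and the DNA methyltransferase gene Dnmt3b 487 and 979, just short of 2-fold (second probe set -0.19).

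As a list, the heterochronic and pluripotency-associated genes did not move as one: of 14 members over 100, 1 fell (Lin28a), 1 rose, 6 were above 0 and the median was -0.12. The riser was Crabp1, a binding protein of retinoic acid, with 3756 at E10.5 and 1269 at E9.5 (1.56), which is also found in neural crest and fell back to 72.5 at E12.5. Mycn, a growth-promoting factor of progenitors, was at -0.67, with the second probe set at 0.77. Epcam, an epithelial adhesion molecule, was at 0.62, with the second probe set at -0.23.

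Among the other large falls were Irs4, an adaptor of insulin receptor signalling, with 325 at E10.5 and 1033 at E9.5 (-1.65), whose dim second probe set went up by 0.87. Gsdme, a gasdermin, had 598 and 1704 (-1.50) and Sephs2, an enzyme of selenocysteine synthesis, 621 and 1506 (-1.27), with second probe sets at -0.28 and -0.18. Nrp1, a semaphorin and VEGF receptor, had 115 and 290 (-1.29; second probe set -0.27). Mdn1, a factor of ribosome assembly, had 155 and 470 (-1.56), and Mid1, a ubiquitin ligase, 181 and 477 (-1.36), with dim second probe sets at 0.09 and 0.16. Both probe sets went down for Car4, a carbonic anhydrase (-1.67 and -2.04), and for Grhl2, an epithelial factor (-1.25 and -2.64). The second probe set of Grhl2 was dim, with 2.52 at E10.5 and 49.8 at E9.5.

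**Figure D3:**
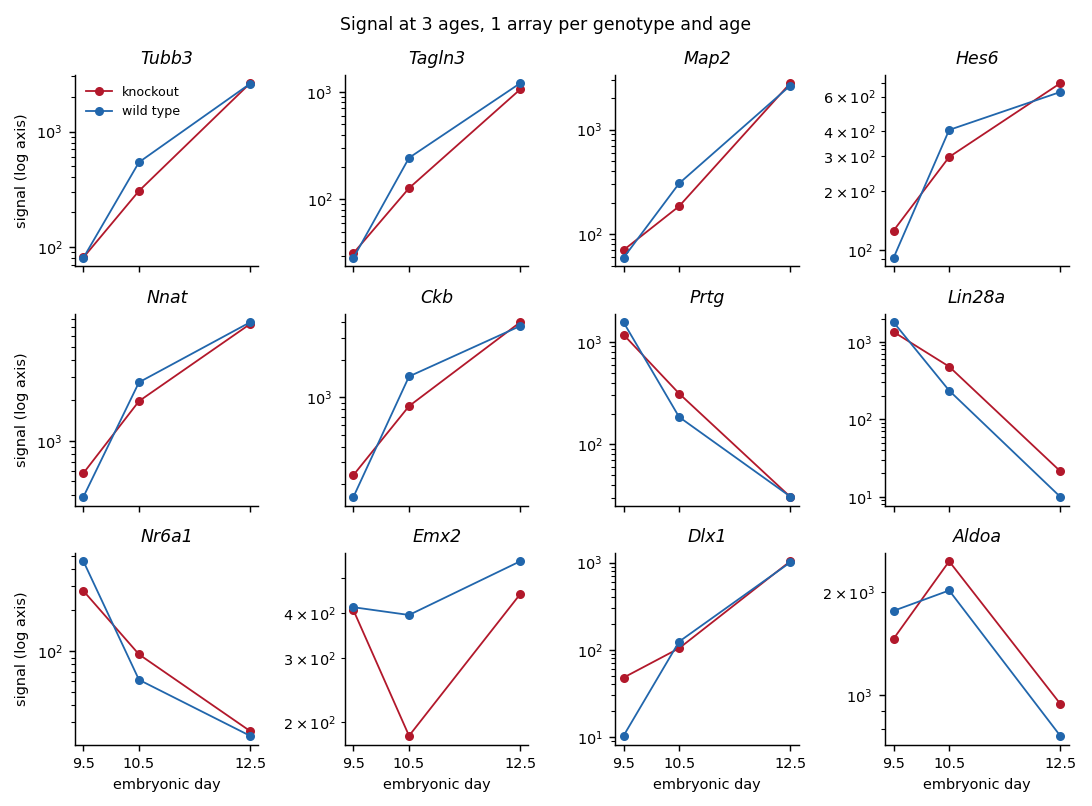
Signal (log axis) of 12 genes over the 3 embryonic days in knockout (red) and wild type (blue), 1 array per point. Neuronal genes climb and Prtg, Lin28a and Nr6a1 drop in both genotypes; Emx2 dips to 183 at E10.5 in the knockout alone, where wild type stands at 395.

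Regional factors fill 4 lists, with 15 dorsal, 9 ventral, 9 eye and hypothalamus and 7 thalamus and midbrain members over 100. Among these Dlx1 rose and Emx2, Meis2 and Six6 fell. Of all 7614 genes 1.60% rose and 0.919% fell. In the dorsal telencephalon list 15 of 19 measured members were over 100, 4 of them above 0 and 11 below, with a median of -0.12. Emx2, a homeobox gene of the cortex, fell, with 183 at E10.5 and 407 at E9.5 (-1.13), and stood at 451 at E12.5. It has 1 probe set. The others stayed within 2-fold: Sp8 at -0.54, Nr2e1 at -0.35 (dim second probe set 0.68), Dmrta2 at -0.30, Pax6 at -0.22 (second probe set 0.46) and Lhx2, the LIM-homeobox selector of cortex, at 0.31.

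In the ventral telencephalon list 9 of 20 measured members were over 100 and their median was 0.12. Dlx1, a homeobox gene of GABAergic neurons, had 104 at E10.5 and 47.9 at E9.5 (1.02) and 1035 at E12.5. Meis2, a homeobox cofactor, had 412 and 860 (-1.05; second probe set -0.59). Dlx2 was at -0.24, Olig2 at 0.54 and Isl1 at 0.28 (second probe set 1.52).

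Of the eye and hypothalamus factors, Six6, a homeobox gene of retina and hypothalamus, fell, with 126 at E10.5 and 355 at E9.5 (-1.45), and had 9.64 at E12.5. Mitf, the factor of retinal pigment epithelium, was at -0.89 (second probe set -0.27) and Vax1, of the optic stalk, at -0.64 (second probe set 0.01). Otx2 was at 0.72. Nkx2-9, a ventral midline factor, had 34.3 and 111 (-1.53). The thalamus, pretectum and midbrain list had 7 of 21 members over 100, 6 of them above 0 and none at 2-fold, between Pax3 (-0.63; second probe set 0.32) and Gata2 (0.75; second probe set 0.87).

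In the lists of signalling pathways of the forebrain's organising centres most members over 100 were below 0, as were most of all 7614 genes. In the rostral Fgf list 7 of 9 members over 100 were below 0 (median -0.29, 0 at 2-fold). The feedback inhibitors Spry1 and Spry2 stood at -0.42 and -0.35. The second probe set of Spry2, at 0.69, was dim, with 4.93 at E10.5 and 0.6 at E9.5. In the Sonic hedgehog list 7 of 9 were below 0 (median -0.17). Smo, the membrane transducer of the pathway, fell, with 364 at E10.5 and 805 at E9.5 (-1.13; second probe set -1.05), and Ptch1, receptor and target of the pathway, had 1073 and 1599 (-0.57; second probe set -0.20). Of the Wnt receptors and modulators 11 of 14 were below 0 (median -0.17), led by the receptor Fzd5 (-0.69; second probe set -0.41). The median of all 7614 genes was -0.07, and the Fgf, Sonic hedgehog and Wnt medians lay -0.22, -0.10 and -0.10 from it.

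The hem and roof plate list was also mostly below 0, 9 of 13 (median -0.16, which is -0.09 from that of all genes). Rspo1, a Wnt enhancer, was at -0.79 and Zic1 at -0.68 (second probe set 0.09). Msx1 (0.75; second probe set 1.35), Msx2 (0.58) and Bmp4 (0.57), the BMP ligand and the homeobox genes it induces, were above. In the retinoic acid list, besides Crabp1, Rarb, a receptor induced by retinoic acid, was at 0.80 and Aldh1a3, a synthesis enzyme, at -0.55 (second probe set -0.71). In the axon guidance list 10 of 22 members over 100 were above 0. Epha3 stood at 0.79 (second probe set 0.05) and Flrt3 at 0.77 (second probe set 0.19) at one end. At the other were Unc5c (-0.95, second probe set 0.28) and Nrp1.

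**Figure D4:**
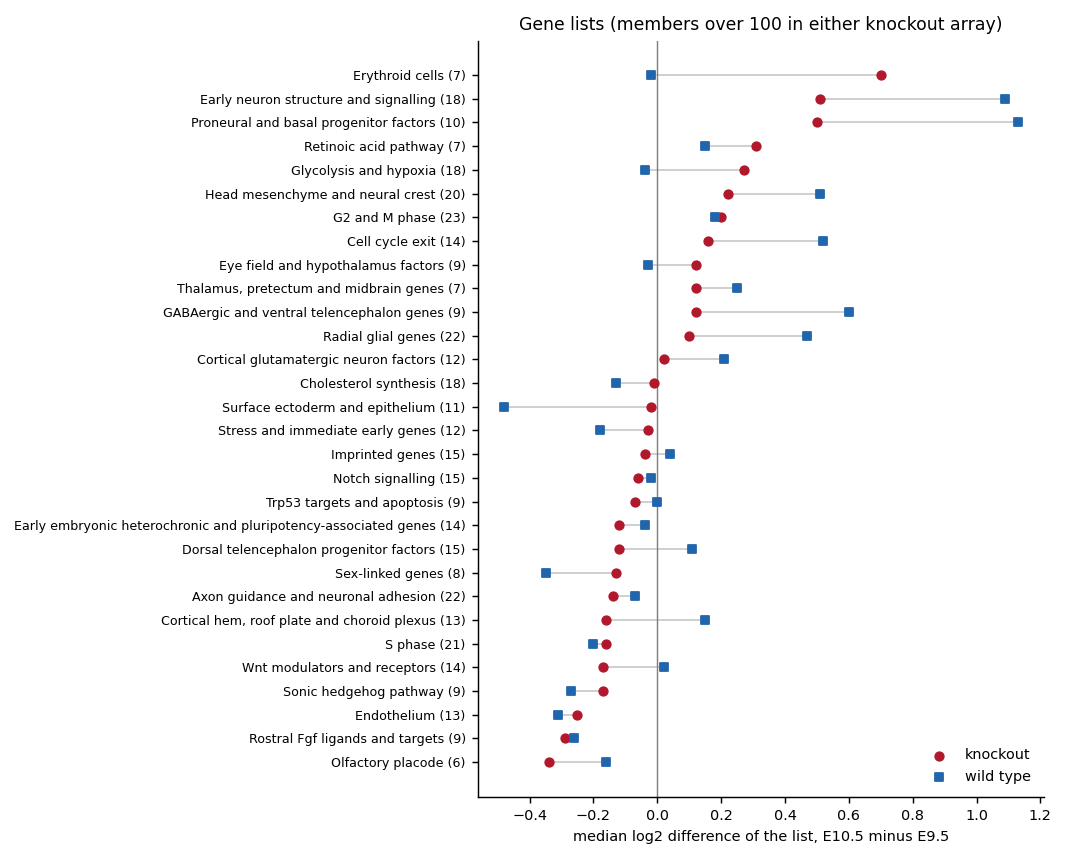
Median log2 difference (E10.5 minus E9.5) of each gene list with at least 5 members over 100 in either knockout array, number of such members in brackets, red circles for knockout and blue squares for wild type. Erythroid (0.70), early neuron (0.51) and proneural (0.50) genes have the highest knockout medians.

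Stress and immediate early genes held some of the largest changes in both directions. Fos had 38.9 at E10.5 and 290 at E9.5 (-2.71) and Egr1 60.3 and 344 (-2.39). Both are transcription factors switched on within minutes of a stimulus, and both also fell in wild type (-2.86 and -2.88). Hspa1a, an inducible Hsp70 chaperone, had 167 at E10.5 and 21.7 at E9.5 (2.62), and its near-identical copy Hspa1b 487 and 184 (1.37; second probe set 1.51). Ddit4, an inhibitor of mTORC1 induced by stress, had 756 and 212 (1.80). Of 12 list members over 100, 3 rose and 2 fell. Probe sets of Hspa1a and Hspa1b may take up each other's transcripts.

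The promoters of this Hsp70 pair are shown because the genes rose together and have nearly the same sequence. The 250 bases before each start, from RefSeq on GRCm38.p6, differ at 3 positions, and the capitals mark a heat shock element core.
Hspa1a, chr17:34972157-34972406, minus strand: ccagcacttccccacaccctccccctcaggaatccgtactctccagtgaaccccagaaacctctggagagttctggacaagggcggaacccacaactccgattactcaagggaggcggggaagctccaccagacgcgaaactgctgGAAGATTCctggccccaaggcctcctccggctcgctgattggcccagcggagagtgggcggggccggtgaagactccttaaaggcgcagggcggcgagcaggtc
Hspa1b, chr17:34959239-34959488, minus strand: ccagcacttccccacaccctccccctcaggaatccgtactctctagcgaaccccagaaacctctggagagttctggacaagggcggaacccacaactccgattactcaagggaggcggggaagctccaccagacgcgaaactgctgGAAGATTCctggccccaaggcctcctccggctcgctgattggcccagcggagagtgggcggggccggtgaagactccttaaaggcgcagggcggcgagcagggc
The letters searched were GAANNTTC and TTCNNGAA, each its own reverse complement, and 12.8% of the 32851 promoters hold a match in this window.

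Metabolic genes moved modestly. In the glycolysis list 12 of 18 members over 100 were above 0 and the median was 0.27. Pfkl, a phosphofructokinase, had 1142 at E10.5 and 677 at E9.5 (0.75; second probe set 0.92), Aldoa, aldolase, 2462 and 1463 (0.75; second probe set 0.86), and Tpi1 2847 and 1915 (0.57; second probe set 0.86). The glucose transporters Slc2a3 (-0.52; second probe set -0.69) and Slc2a1 (-0.28; second probe set -0.30) went the other way. Cholesterol synthesis genes were evenly split, 9 above and 9 below 0 among 18, with Dhcr7, an enzyme of the last steps, the 1 faller (221 and 466, -1.06). In the imprinted list Nnat and Cdkn1c rose, and 8 of 15 members lay below 0, among them Mest (-0.39).

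Several of the largest single changes belonged to genes of general cell function. Vapb, a tether of the endoplasmic reticulum, had 392 at E10.5 and 21.1 at E9.5 (3.85), but its second probe set stood at 63.0 and 57.5. Ap2b1, a clathrin adaptor subunit, had 458 and 107 (2.04), and its second probe set 143 and 160. U2af1, a splicing factor, had 2077 and 584 (1.82) and Sympk, a scaffold of polyadenylation, 341 and 108 (1.60). Rpl39, a ribosomal protein, had 13.3 and 131 (-2.79) but 105 at E12.5. Cog8, a Golgi tether, had 21.8 and 132 (-2.30), with the second probe set at 66.9 and 65.3. For Vapb, Ap2b1 and Cog8 the change thus rests on a single probe set.

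Markers of tissue around or inside the forebrain wall were followed as well. In the erythroid list 6 of 7 members over 100, of 17 measured, were above 0, with a median of 0.70 against -0.07 for all genes. Alas2, the heme synthesis enzyme of red cells, had 186 at E10.5 and 88.0 at E9.5 (1.03) and Hemgn 323 and 192 (0.73). The embryonic globins were bright at both ages: Hbb-y had 9990 and 9854, Hbb-bh1 9820 and 8639, and Hba-x 7434 and 4983. The dimmer globins were Hba-a2 with 68.9 and 36.7, Hbb-b2 with 15.3 and 5.84, and Hba-a1 with 4.97 and 5.60. The summed signal of all measured members of the erythroid list, in which the globins are not counted, was 4113 at E10.5 and 3380 at E9.5.

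The mesenchyme and neural crest list had 20 of 30 members over 100, 13 above 0, with a median of 0.22 and a summed signal of 13339 at E10.5 and 9936 at E9.5. Crabp1, with 3756 and 1269, was its only riser and made up most of the rise of that sum. Twist2 was at 0.63 and Six2 at 0.52, while the crest and ectoderm factors Tfap2b (-0.83; second probe set 0.10) and Tfap2a (-0.59; second probe set -0.79) were lower. Endothelial genes summed to 6166 at E10.5 and 7312 at E9.5 (8 of 13 below 0, median -0.25), with Flt4 at -0.82 and Kdr at 0.41. Slc2a1, also in the glycolysis list, with 2715 and 3306, and Aplnr, with 1139 and 1471, made up most of both sums. Pericyte genes had 4 members over 100, 3 of them below 0. Acta2, a smooth muscle actin, had 97.6 and 208 (-1.04). Its second probe set had almost no signal, with 0.48 and 0.603, so its change of -0.03 says little.

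Surface ectoderm genes had 11 of 24 over 100, 5 above 0, with a summed signal of 2716 at E10.5 and 2828 at E9.5. Cdh1, E-cadherin, was at -0.69 and Krt18 at 0.42. Of 24 measured macrophage and microglia genes 22 were not over 100, including Ptprc (31.6 and 17.1), Cx3cr1 (25.5 and 14.6) and Aif1 (5.48 and 0.886). Only Pf4 (-0.10) and Csf1r (0.61; second probe set -0.45) were. Of the olfactory placode list 6 members were over 100, 4 of them below 0, and of the lens and eye list Mitf and Maf, both below 0. The Trp53 target list had 3 of 9 above 0 and none at 2-fold, from Ccng1 (-0.46) to Plk2 (0.66). The part of blood, mesenchyme or vessels in the changes of other genes was not tested.

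The same day in wild type was set beside the knockout. The wild-type change uses a pair of arrays that the knockout change does not, but each genotype has 1 array per age, so no difference between the genotypes was tested. Across 7922 genes over 100 in any of the 4 arrays, the changes had an SD of 0.43 in the knockout against 0.54 in wild type. In the knockout 134 of these genes rose (1.69%) and 75 fell (0.947%), against 305 (3.85%) and 156 (1.97%) in wild type. Among them 106 rose in both, 28 in the knockout only and 199 in wild type only, while 37 fell in both, 38 in the knockout only and 119 in wild type only. The changes correlated at 0.79 over the 7922 genes, which share arrays and are not replicates, with a slope of 0.63 for the knockout on wild type. Scatter in the wild-type change lowers this slope, so it is not a ratio of the changes.

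The knockout's own movers mostly went the same way in wild type. Of its 122 risers 121 were also above 0 in wild type, 94 by at least 2-fold, and 68 changed more there. Of its 70 fallers 66 were below 0 in wild type, 35 by at least 2-fold, and 28 fell further there. Both sets were chosen by the knockout change, which favours a larger change in the knockout. The share of all genes that went the same way in both genotypes was not counted. After E10.5, 24 of the 122 risers went up at least 2-fold more by E12.5 in the knockout and 25 dropped back at least 2-fold. Crabp1 and Crym, a thyroid hormone-binding protein, were among those that dropped back, Crym with 417, 1287 and 34.4 at the 3 ages in order. Of the 70 fallers 16 fell at least 2-fold further and 10 came back by as much. The E10.5 array enters both steps, which are therefore not independent.

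The neuronal lists had lower median changes in the knockout than in wild type. Of all 7614 genes, 52.4% had a change in the knockout below that in wild type and 47.6% one above it. These shares cover genes of every direction. The knockout had fewer risers (134 against 305 in wild type) and fewer fallers (75 against 156) over all genes. Lists that rise or fall in wild type may therefore depart from these shares for that reason alone, which was not tested. In the early neuron list 17 of 18 members had a change in the knockout below that in wild type, with medians of 0.51 in the knockout against 1.09 in wild type, and 6 risers in the knockout against 11 in wild type. In the proneural list this held for 8 of 10 members, with medians of 0.50 and 1.13. For Tubb3 and Tagln3 the genotypes lay close together at E9.5 and apart at E10.5: Tubb3 had 306 in the knockout against 542 in wild type at E10.5, and 81.1 and 80.6 at E9.5. For Insm1, a zinc-finger factor of basal progenitors, they differed at both ages, with 156 in the knockout against 269 in wild type at E10.5, and 105 and 48.0 at E9.5. Its changes were 0.54 and 2.34 (second probe set 0.92 and 2.49). Hes6, with 297 against 407 at E10.5 and 126 against 91.8 at E9.5, also differed at both ages. So did Gadd45g, with 177 against 287 and 86.0 against 62.4. The other members were not sorted by these patterns.

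In the ventral telencephalon list 8 of 9 members had a change in the knockout below that in wild type, among them Meis2, which fell in the knockout (-1.05 in the knockout against -0.46 in wild type). Lhx8, a LIM-homeobox gene of ventral telencephalon, had 127 at E10.5 and 111 at E9.5 in the knockout, and 126 and 11.5 in wild type (changes of 0.18 and 2.87). Dlx1 had 104 and 47.9 in the knockout, and 124 and 10.3 in wild type (1.02 and 2.96). At E10.5 the genotypes thus stood side by side for both genes, and the gap lay at E9.5. In the radial glial list the change was below that in wild type for 19 of 22 members, among them Sox1, which fell (-1.52 in the knockout against -0.95 in wild type), Fabp7 (0.85 in the knockout against 2.11 in wild type) and Nes (0.42 and 2.05).

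In the early embryonic list 9 of 14 members had a change in the knockout above that in wild type and 5 one below it, with medians of -0.12 in the knockout against -0.04 in wild type. Its member Lin28a changed by -1.47 in the knockout against -2.90 in wild type (second probe set -1.14 and -2.67), and its member Sall4 by -0.90 and -1.60. Outside the list, Prtg changed by -1.88 and -3.02 and Nr6a1 by -1.49 and -2.77. For Lin28a the knockout signal was the higher one at E10.5 (479 in the knockout against 235 in wild type) and the lower one at E9.5 (1342 and 1788). Sall3, a relative of Sall4, stood at 0.29 in the knockout against -2.21 in wild type, from 52.6 and 41.9 in the knockout and 18.4 and 108 in wild type at E10.5 and E9.5. Its second probe set gave -0.66 and -0.04. Bmp2, a BMP ligand, was at -0.06 in the knockout against -1.65 in wild type. Its signals were 38.6 and 40.6 in the knockout, and 27.9 and 101 in wild type, at E10.5 and E9.5. Sall3 and Bmp2 thus passed the minimum only through wild type at E9.5, the array that makes their wild-type fall large.

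Against 47.6% of all 7614 genes, all 12 stress genes over 100 had the more positive change in the knockout, among them Hspa1a (2.62 in the knockout against 1.53 in wild type) and Ddit4 (1.80 and 1.23). Of the glycolysis genes 16 of 18 did (medians 0.27 and -0.04), among them Pfkl (0.75 and 0.16; second probe set 0.92 and 0.61) and Pdk1 (-0.25 and -1.16; second probe set -0.59 and -1.03). The erythroid medians were 0.70 in the knockout against -0.02 in wild type, but over 7 members. Mt1, a metallothionein, had a change of 1.03 in the knockout against -0.15 in wild type. Emx2 and Vax1 differed the other way: Emx2 was at -1.13 in the knockout against -0.07 in wild type, and Vax1 at -0.64 and 0.39.

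Across all 7922 genes, 25 had a change at least 2-fold above that in wild type and 74 one at least 2-fold below. The 12 furthest below included Xist (-4.65 in the knockout against -0.34 in wild type), Chst15, a sulfotransferase (-0.10 and 2.13), Aldh1a1, a retinoic acid synthesis enzyme (0.31 and 2.20), Pmel, a melanosome protein (0.68 and 2.52), Mpped2 (0.37 and 2.13) and Fbxw22 (-0.74 and 1.41). The 12 furthest above included Il17re (-0.52 and -2.11), Wfikkn1, a protease inhibitor domain protein (-0.58 and -2.02), and Maob, monoamine oxidase B (-0.21 and -1.49). Chst15, Pmel and Wfikkn1 were not over 100 in either knockout array. They passed the minimum only through a wild-type array, the same one that makes their wild-type change large.

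**Figure D5:**
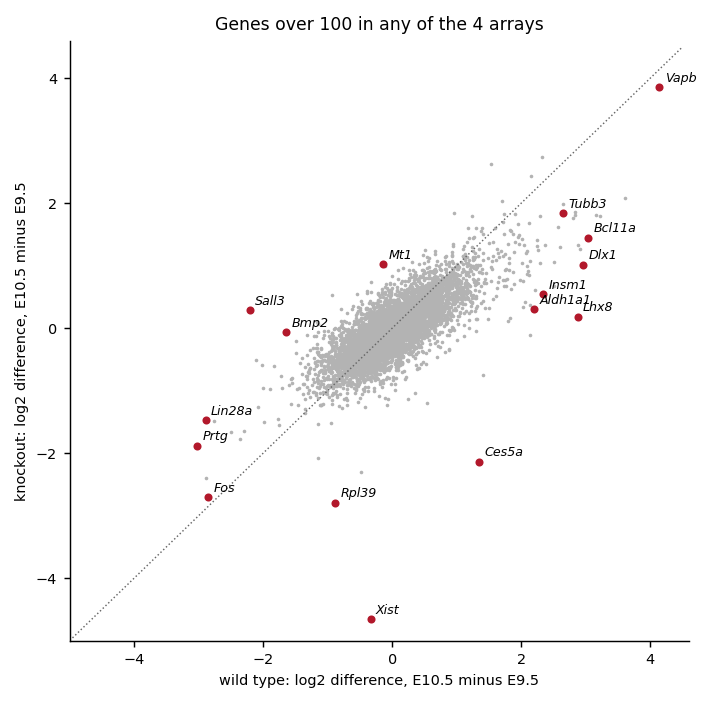
Change from E9.5 to E10.5 (log2 difference, E10.5 minus E9.5) in knockout (vertical axis) against wild type (horizontal axis) for 7922 genes over 100 in any of the 4 arrays, 1 array per genotype and age. The dotted line marks equal change. The slope of the knockout change on the wild-type change is 0.63, a value that scatter lowers. Xist and Ces5a lie far below the dotted line.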

How the data were processed

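The deposited intensity values are linear probe set signals of 6 arrays. Per the submitters' processing notes, the authors used MAS5, which corrects background and summarises probes before deposit. The version, like any scaling target, is not given in the sources used here. The arrays differed in level (2% trimmed mean 91.2 in the knockout at E10.5 and 114 at E9.5), so all 6 were quantile-normalized. The pseudocount, 6.50, is the lower quartile of all deposited values. Probe sets were named by the platform annotation: 34958 name 1 gene, 932 several and 9211 none that is listed. A gene takes its probe set with the highest mean over the 6 arrays. Calculations used Python 3.11.15, numpy 2.4.6 and pandas 2.3.3 and were tested on simulated data.

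Depth has no counterpart on arrays; their number, 1 a group, limits the precision. Alternatives were no scaling, a common trimmed mean, normalizing the knockout pair alone, other pseudocounts, signal minimums of 50 and 200, no minimum, and other probe sets of a gene. Members and the 37 lists were chosen with earlier results of these data known. Named genes are the 25 largest rises and falls, up to 4 list members each way, the 12 furthest above and below wild type, all sex-linked and globin genes, Fezf1, Fezf2 and Hes5, without clone names. Genes named outside this rule, such as those below the minimum or shared by probe sets, were chosen after their values were seen.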

Additional observations from a re-analysis of the deposited data

Results flagged for a closer look

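Ces5a, a carboxylesterase gene, was the only gene over 100 that changed at least 2-fold one way in the knockout and at least 2-fold the other way in wild type. It had 30.6 at E10.5 and 157 at E9.5 in the knockout, against 144 and 53.0 in wild type, for changes of -2.14 and 1.34. Its second probe set gave -1.26 in the knockout against 0.43 in wild type, but it was dim, with 3.46 at E10.5 and 17.4 at E9.5 in the knockout. The difference between the genotypes was not tested, since each has 1 array per age.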

How the results depend on the processing

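Without replicates nothing could be left out, and no call of significance exists to lose. No paired analysis was possible because each group has 1 array. Counts of genes at least 2-fold higher and lower in the knockout, 122 and 70, were 46 and 341 on the values as deposited, 189 and 125 with a minimum of 50, 72 and 46 with a minimum of 200, and 817 and 766 with none. With the mean of all probe sets, 85 were higher and 35 lower, among 6302 genes against 7614 in the main setting. With the second-brightest probe set, 127 were higher and 34 lower among only 2778 genes. Beside wild type (134 and 75 in the knockout, against 305 and 156 in wild type), the deposited values gave 51 and 348 in the knockout, against 77 and 1184 in wild type. A minimum of 50 gave 208 and 135 in the knockout and 471 higher in wild type. With the median pseudocount 49 were lower in the knockout. Averaging a gene's probe sets gave 38 lower in the knockout, against 78 in wild type. Wild type had more genes than the knockout, in each direction, under all 7 settings compared. Of 30 list medians relative to all genes, those of ventral telencephalon (-0.14 on deposited values), surface ectoderm (0.33 with a minimum of 50) and olfactory placode (0.04 with a minimum of 50, the other direction) moved; the cause was not tested. Of 66 named genes at 2-fold, none changed direction by scaling, pseudocount or minimum. The second-brightest probe set turned 7 of 39: Ap2b1 (-0.15), Cog8 (0.03), Irs4 (0.87), Mdn1 (0.09), Sox1 (0.60), Mid1 (0.16) and Nol6 (0.18). Of these second probe sets only that of Ap2b1, with 143 at E10.5 and 160 at E9.5, was over 100 in either knockout array.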
